A study of Mus musculus with 62 samples.

Results

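The liver of male wild-type (WT) mice was compared between a high-fat diet (HFD) and chow, over every gene that the RNA sequencing counted well enough to test. The samples were chosen by their labels for sex, tissue, genotype and diet, which gave 4 libraries on HFD and 4 on chow, 8 of the 62 libraries of the series. The mice were C57BL6 without the *Fam13a* knockout (KO), and the knockout of the series removes exon 5 of *Fam13a*. HFD, with 45% of its calories from fat, was given from 8 weeks of age for 14 weeks, and these mice were killed at 22 weeks. The chow held 18% of its calories as fat, and for the chow mice whose liver was sequenced the age was not given in the sources used here. Age, if it differed, and diet cannot be told apart, and neither can diet and the other ingredients of the feed. The hour of harvest and the time without food before it were also not given for these livers. A fast through the night before killing is described in the study's methods for tissue stained for histology, with no word on whether it covers the sequenced livers. Each library is one bulk liver sample. Fewer cells of a type and less RNA per cell therefore cannot be told apart in any value below. The labels do not say how the libraries of a group relate to cages or litters, and p-values measure the spread between these libraries.

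The liver stores and releases glucose, makes fatty acids, cholesterol, bile acids and most plasma proteins, breaks down amino acids and clears foreign compounds. After feeding, insulin raises the transcription of genes for glycolysis and fat synthesis, largely through SREBP-1c (the product of *Srebf1*) and ChREBP (the product of Mlxipl), and lowers that of genes for glucose production. During fasting, free fatty acids activate the nuclear receptor PPARα, which raises genes of fatty acid oxidation. Many of these genes also follow the circadian clock and the time of the last meal.

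Reads counted on genes numbered from 10219345 to 28723319 in a library. Chow library 3 was the shallowest, and the other 7 held at least 20882223. The share of ribosomal RNA, here and below, is that of 1 annotated nuclear locus and leaves out other ribosomal RNA genes. It was 18.2% of the counts of chow library 3, 3.43% of HFD library 1, 0.907% of chow library 4 and at most 0.0274% of the other 5. Mitochondrially encoded genes took between 24.2% and 32.3%. All chow libraries were sequenced on lane 3, HFD library 1 on lane 8 and HFD libraries 2 to 4 on lane 6, so lane and diet cannot be told apart. The tissue was taken from the labels. The hepatocyte marker *Alb*, the gene of serum albumin, was at 58093, 51452, 31479.9 and 25276 CPM on chow and 41047, 52799, 46873 and 39722 CPM on HFD. CPM here and below are counts scaled to a library of 1000000 and use library sizes normalized by edgeR's TMM method over the 8 libraries, and libraries are always listed in the order 1 to 4. A log2 fold change is that of HFD over chow, ± its standard error, and the adjusted p is that of edgeR's quasi-likelihood test over all genes tested. Genes that passed an FDR of 10% are called differentially expressed (DE).

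In total, 14144 genes were tested and 4333 were DE (30.6% of those tested), 2250 of them higher on HFD (15.9%) and 2083 lower (14.7%). The median log2 fold change over all genes tested was -0.00060. These shares are the background for every count of a gene list below. In 3603 genes (25.5%) the 4 HFD libraries all lay on one side of the 4 chow libraries, and 3234 of these genes were DE. Most differences were small: 2603 DE genes (60.1%) changed by less than 1.5-fold, 762 by at least 2-fold (435 higher and 327 lower), and 142 by at least 4-fold.

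**Figure D1:**
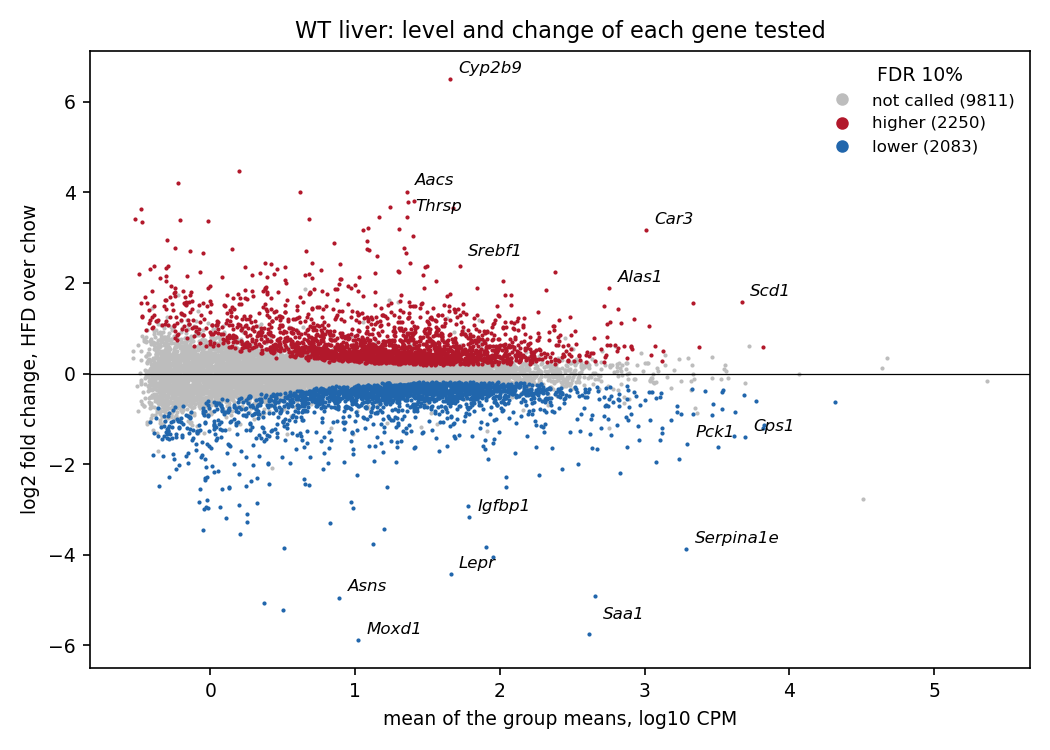
Each point is 1 of the 14144 genes tested in WT liver, by the log10 of the mean of its 2 group means in CPM and its log2 fold change of HFD over chow. Genes higher on HFD (2250) are red, genes lower (2083) blue and the other 9811 grey, at an FDR of 10%. *Cyp2b9* has the largest increase of the labelled genes (6.51) and *Moxd1* the largest decrease (-5.88).

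The GC share of transcripts moved with diet. In all 4 chow libraries genes of high GC share lay below their mean over the 8 libraries (Spearman's rho of deviation and GC share between -0.46 and -0.17, across 9351 genes), and in all 4 HFD libraries above it (0.11 to 0.43). Across the 14105 tested genes with a GC share, its rho with the log2 fold change was 0.34, a description across genes, which are not independent. Genes called lower made up 30.3% of the decile of lowest GC share and 3.69% of the highest, and genes called higher 5.02% and 27.9%. Because lane and diet coincide, the part of sequencing in this relation cannot be told apart from that of diet. With an offset for GC share fitted to each library, 3557 of 14144 genes were DE, 1701 higher and 1856 lower. Of the 4333 DE genes 3010 remained so in the same direction, and of the 762 that changed at least 2-fold 717.

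**Figure D2:**
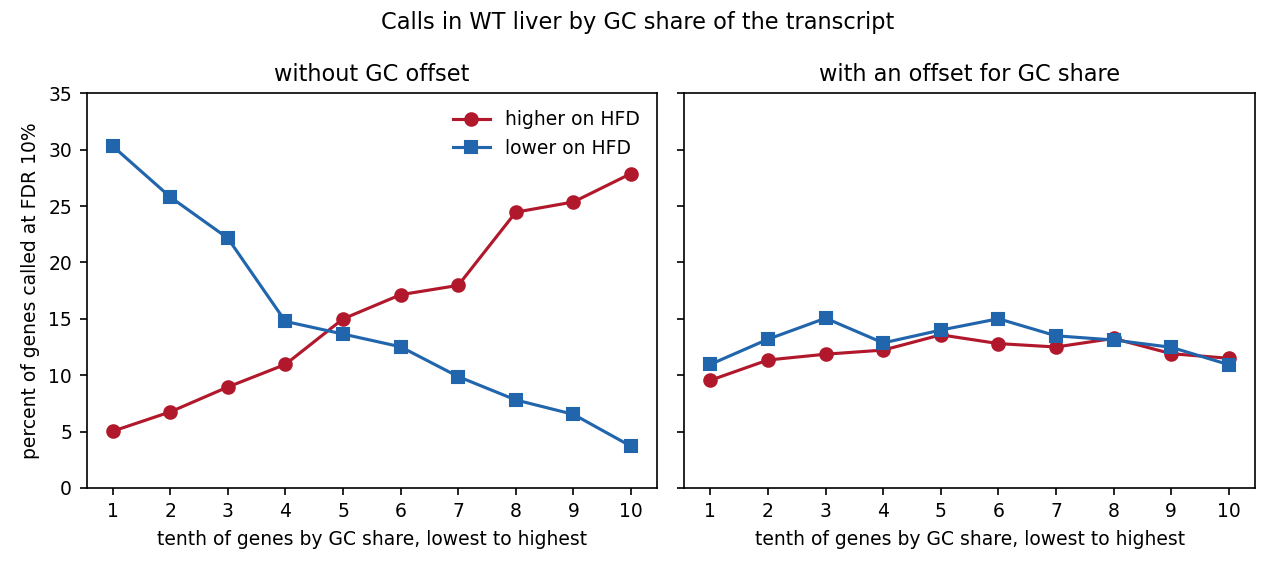
Percent of genes called higher (red circles) and lower (blue squares) on HFD in WT liver, in deciles of the tested genes by GC share of the longest transcript, without (left) and with (right) an offset for GC share. Without it the share called lower falls from 30.3% to 3.69% and the share called higher rises from 5.02% to 27.9%. With it the shares lie between 9.55% and 15.1% in every decile.

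Chow libraries 3 and 4 stood apart in acute phase genes, which are described below, and each count of a list is therefore also given without both libraries where it moved by over 1.5 times. Without them, 3201 of 14890 genes tested were DE, 1713 higher and 1488 lower. Of these DE genes, 2861 were among the 4333 and kept their direction. Of the genes given below, *Alas2*, *Atf3*, *Ccl2*, *Cd163*, *Cpt1a*, *Cyp2b10*, *Cyp7a1*, *Dnase1l3*, *Fos*, *Hamp*, *Hba-a1*, *Hba-a2*, *Hnf4a*, *Igf1*, *Jun*, *Klf4*, *Lama2*, *Mup11*, *Myc*, *Orm2*, *Plin2*, *Rgs5*, *Rps29*, *Saa1*, *Saa2*, *Serpina1a* and *Slc30a1* were DE with all 8 libraries and not DE without these 2.

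Genes that rose with the smallest p-values included enzymes of mitochondria and of heme, creatine and steroid synthesis. *Car5a* (ENSMUSG00000025317, chr8:121916126-121944904), the mitochondrial carbonic anhydrase that supplies bicarbonate to gluconeogenesis and the urea cycle, was at 31.3, 36.8, 34.6 and 37.7 CPM on HFD against 12.6, 10.7, 11.8 and 11.8 CPM on chow (log2 fold change 1.58 ± 0.091, adjusted p = 3.4e-05). *Alas1* (ENSMUSG00000032786, chr9:106233455-106248654), the first enzyme of heme synthesis in liver, was at 252, 239, 275 and 205 CPM in the chow and 796, 807, 994 and 988 CPM in the HFD libraries (log2 fold change 1.88 ± 0.13, adjusted p = 6.6e-05). The lowest HFD library of *Alas1* lay far above the highest chow library, as in *Car5a*. *Gamt* (ENSMUSG00000020150, chr10:80258151-80261012), the last enzyme of creatine synthesis, was at 17.7, 24.5, 16.5 and 23.3 CPM on chow and 69.7, 69.7, 71.8 and 68.8 CPM on HFD (log2 fold change 1.76 ± 0.12, adjusted p = 6.6e-05), the HFD libraries lying close together. *Tlcd2* rose by 1.24 ± 0.082 (adjusted p = 6.6e-05) and *Sipa1l2* by 1.54 ± 0.11 (adjusted p = 7.8e-05). *Hsd3b3*, a 3β-hydroxysteroid dehydrogenase, was at 60.9, 62.8, 43.2 and 53.0 CPM on chow and 142, 193, 199.96 and 198 CPM on HFD (log2 fold change 1.73 ± 0.14, adjusted p = 1.4e-04). *C4a*, a copy of the complement gene *C4b*, was at 83.7, 52.1, 99.4 and 113 CPM on HFD against 5.07, 5.21, 10.7 and 7.86 CPM on chow (log2 fold change 3.66 ± 0.28, adjusted p = 1.1e-04). Reads that fit both copies are not counted, so how the signal divides between these 2 genes is uncertain.

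The genes that fell with the smallest p-values covered plasma protein synthesis, translation and vesicle transport. *Serpina1e* (ENSMUSG00000072849, chr12:103946931-103958975), one of the mouse α1-antitrypsin copies, went from 3614, 1956, 4036 and 4871 CPM on chow to 243, 149, 286 and 313 CPM on HFD (log2 fold change -3.87 ± 0.31, adjusted p = 1.4e-04). It is one of a family of near-identical genes, so its own count is uncertain. *Eif1a*, a translation initiation factor, was at 69.3, 62.0, 58.2 and 59.9 CPM in the chow and 28.1, 28.4, 30.9 and 25.2 CPM in the HFD libraries (log2 fold change -1.15 ± 0.089, adjusted p = 1.1e-04). *Peg3*, an imprinted zinc finger gene, was at 31.6, 28.8, 27.1 and 33.4 CPM on chow and 12.1, 6.88, 6.32 and 6.33 CPM on HFD (log2 fold change -1.95 ± 0.19, adjusted p = 2.7e-04), with HFD library 1 above the other HFD libraries. *Slc45a3* (-1.13 ± 0.10), *Abtb2* (-1.60 ± 0.15), *Arrdc4* (-1.21 ± 0.12), an arrestin-like protein, and *Tmed5* (-1.15 ± 0.11), of vesicle transport, also fell with no overlap of the groups (adjusted p between 1.7e-04 and 2.5e-04).

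By fold, the largest increase among genes of at least 5 CPM was that of *Cyp2b9* (ENSMUSG00000040660, chr7:26173411-26210661), a cytochrome P450 that female mouse liver expresses more than male. It was at 0.181, 0.357, 0 and 3.07 CPM on chow and 26.8, 209, 60.2 and 63.0 CPM on HFD (log2 fold change 6.51 ± 0.88, adjusted p = 9.1e-04), with HFD library 2 the highest by far. Without chow library 4, the highest on chow, the log2 fold change was 8.57, and without HFD library 2 it was 5.67. *Aacs* (ENSMUSG00000029482, chr5:125475814-125517410), which activates acetoacetate for lipid synthesis, was at 30.3, 21, 55.3 and 65.5 CPM on HFD against 2.14, 3.46, 1.62 and 2.90 CPM on chow (log2 fold change 4.02 ± 0.37, adjusted p = 1.9e-04). *C730036E19Rik* (log2 fold change 3.82 ± 0.33, adjusted p = 1.4e-04), *Gm8941* (log2 fold change 3.79 ± 0.37, adjusted p = 2.5e-04) and *Nrep* (log2 fold change 3.67 ± 0.47, adjusted p = 7.0e-04) followed, all with the HFD libraries above the chow libraries. The largest decreases were those of *Moxd1*, *Saa2*, *Asns*, *Saa1* and *Lepr*. *Moxd1*, a monooxygenase-like protein, was at 2.5, 1.71, 32.3 and 46.0 CPM in the chow and 1.17, 0, 0.0359 and 0.302 CPM in the HFD libraries (log2 fold change -5.88 ± 1.26, adjusted p = 0.0081), so that chow libraries 3 and 4 carried most of it. Its log2 fold change was -5.0 without chow library 4, -7.48 without HFD library 1 and -2.58 (adjusted p = 0.08) without chow libraries 3 and 4. *Lepr*, the leptin receptor, was at 60.3, 39.8, 201 and 48.1 CPM on chow and 6.17, 3.32, 2.69 and 4.0 CPM on HFD (log2 fold change -4.42 ± 0.54, adjusted p = 5.6e-04). Its log2 fold change was -3.62 without chow library 3.

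Genes of de novo lipogenesis were mostly higher on HFD. Of 19 tested, 11 rose and 1 fell (median log2 fold change 0.32), against 15.9% and 14.7% of all genes tested. *Srebf1* (ENSMUSG00000020538, chr11:60199089-60222581), the gene of SREBP-1, was at 21.6, 18.9, 14.9 and 12.5 CPM on chow and 57.8, 108, 90.9 and 97.8 CPM on HFD (log2 fold change 2.37 ± 0.21, adjusted p = 1.6e-04). *Thrsp*, the lipogenic protein Spot 14, was at 18.9, 49.3, 47.5 and 52.0 CPM on HFD against 3.26, 4.82, 3.36 and 3.69 CPM on chow (log2 fold change 3.45 ± 0.30, adjusted p = 1.4e-04). In both genes HFD library 1 was the lowest of the HFD libraries, but above every chow library. *Pklr*, pyruvate kinase, a ChREBP target, was at 22.8, 38.7, 20.4 and 31.6 CPM in the chow and 88.3, 84.7, 74.5 and 83.1 CPM in the HFD libraries (log2 fold change 1.53 ± 0.17, adjusted p = 5.0e-04). *Fasn*, fatty acid synthase, was at 49.8, 73.3, 51.4 and 52.5 CPM on chow and 124, 108, 100.1 and 98.0 CPM on HFD (log2 fold change 0.92 ± 0.13, adjusted p = 0.0012), a smaller change with separate groups. *Scd1*, which makes oleate from stearate, was at 3055, 4185, 1772 and 410.0 CPM on chow and 10202, 7856, 4880.0 and 5257 CPM on HFD (log2 fold change 1.58 ± 0.54, adjusted p = 0.057), and chow library 4 was lowest by far, though the groups did not overlap. Its call was lost without chow library 3 (log2 fold change 1.47), HFD library 1 (1.35) or HFD library 2 (1.53). *Elovl5*, a fatty acid elongase, was the gene that fell (log2 fold change -1.03 ± 0.23, adjusted p = 0.0089). Enzymes at the head of the pathway did not pass the test: *Acly*, which makes cytosolic acetyl-CoA, had a log2 fold change of -0.041 ± 0.16 (adjusted p = 0.89) and *Acaca*, acetyl-CoA carboxylase, of 0.12 ± 0.09 (adjusted p = 0.38).

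Part of the pathway that makes cholesterol was higher on HFD. Of 20 genes of cholesterol synthesis, 8 rose and 1 fell (median 0.38), and 5 rose without chow library 1. Leaving out chow libraries 3 and 4, 8 rose and 0 fell by edgeR, with 1 lower at an unadjusted p under 0.05. *Fdft1*, squalene synthase, was at 28.3, 37.4, 36.5 and 33.0 CPM on HFD against 18.8, 20.8, 11.9 and 19.4 CPM on chow (log2 fold change 0.91 ± 0.15, adjusted p = 0.0023). *Acat2* (log2 fold change 0.59 ± 0.11, adjusted p = 0.0041) and *Msmo1* (log2 fold change 0.72 ± 0.21, adjusted p = 0.032) rose with groups that did not overlap. *Sqle*, squalene epoxidase, did not pass the test (log2 fold change 0.021 ± 0.35, adjusted p = 0.98) and overlapped between diets, at 2.65, 8.77, 5.33 and 7.90 CPM in the chow and 10.4, 4.81, 5.20 and 5.01 CPM in the HFD libraries.

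Among genes of sterol sensing, uptake and export, 9 of 17 rose and 1 fell (median 0.25). The pair that retains SREBP in the endoplasmic reticulum went opposite ways. *Insig2*, whose liver transcript insulin lowers, was at 516, 546, 549 and 599.9 CPM on chow and 255, 106, 107 and 85.3 CPM on HFD (log2 fold change -2.0 ± 0.30, adjusted p = 0.0013), with HFD library 1 between chow and the other HFD libraries. *Insig1*, an SREBP target, was at 33.6, 35.6, 35.3 and 39.6 CPM on chow and 51.9, 71.5, 73.0 and 52.6 CPM on HFD (log2 fold change 0.79 ± 0.13, adjusted p = 0.0018). In *Insig1* all HFD libraries lay above chow. *Stard4*, a cytosolic sterol carrier, was at 51.1, 42.4, 60.9 and 58.5 CPM on HFD against 20.0, 25.6, 15.2 and 25.5 CPM on chow (log2 fold change 1.29 ± 0.16, adjusted p = 7.2e-04). *Srebf2* (log2 fold change 0.63 ± 0.13, adjusted p = 0.0063), the master gene of cholesterol synthesis, and *Abcg8* (log2 fold change 0.75 ± 0.12, adjusted p = 0.0021), which exports sterols into bile, also rose, and the groups did not overlap.

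Genes of triglyceride synthesis and lipid droplets went both ways, 9 higher and 8 lower of 29 (median 0.10). Without chow library 2, HFD library 2, HFD library 3 or both chow libraries 3 and 4, 5 fell. *Cd36* (ENSMUSG00000002944, chr5:17781690-17888801), a fatty acid transporter, was at 95.5, 87.5, 79.95 and 90.3 CPM in the chow and 212, 233, 199.8 and 180.2 CPM in the HFD libraries (log2 fold change 1.22 ± 0.10, adjusted p = 1.4e-04). *Dgat2*, which adds the last acyl chain of triglycerides, was at 158, 159.7, 166 and 164 CPM on chow and 228, 315, 346 and 368 CPM on HFD (log2 fold change 0.96 ± 0.14, adjusted p = 0.0011). *Pparg*, the nuclear receptor of fat storage, was at 5.15, 6.49, 3.48 and 5.40 CPM on chow and 11.2, 9.28, 17.0 and 17.8 CPM on HFD (log2 fold change 1.39 ± 0.23, adjusted p = 0.0022), and its target *Mogat1* at 2.43, 2.81, 2.15 and 2.98 CPM on HFD against 0.435, 1.28, 0.811 and 1.84 CPM on chow (log2 fold change 1.22 ± 0.35, adjusted p = 0.029). *Lipe*, hormone-sensitive lipase, rose too (log2 fold change 0.76 ± 0.11, adjusted p = 0.001). Genes of proteins on lipid droplets went the other way or did not pass the test. *Plin5*, which ties droplets to mitochondria, was at 69.6, 65.0, 93.0 and 73.5 CPM in the chow and 43.9, 22.6, 25.6 and 25.3 CPM in the HFD libraries (log2 fold change -1.36 ± 0.20, adjusted p = 0.0012). *Cidec*, which fuses droplets, was at 14.2, 43.6, 43.1 and 55.6 CPM on chow and 18.1, 7.56, 11.7 and 13.3 CPM on HFD (log2 fold change -1.63 ± 0.37, adjusted p = 0.0099), overlapping because chow library 1 was low. *Plin2*, the main coat protein of hepatocyte droplets, was at 701, 909, 649 and 823 CPM on chow and 764, 528, 509 and 458 CPM on HFD (log2 fold change -0.45 ± 0.17, adjusted p = 0.083), with HFD library 1 inside the chow range. Its call was lost without any 1 of 6 libraries (log2 fold change -0.49, -0.36 and -0.42 without chow library 1, 2 or 4, and -0.42, -0.40 and -0.36 without HFD library 2, 3 or 4). *Cidea*, near the lower limit of counting, was at 0.495, 0.373, 0.610 and 2.26 CPM on HFD against 0.0362, 0.107, 0 and 0.878 CPM on chow (log2 fold change 1.73 ± 0.87, adjusted p = 0.18), and passed the test without chow library 4 (3.82).

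**Figure D3:**
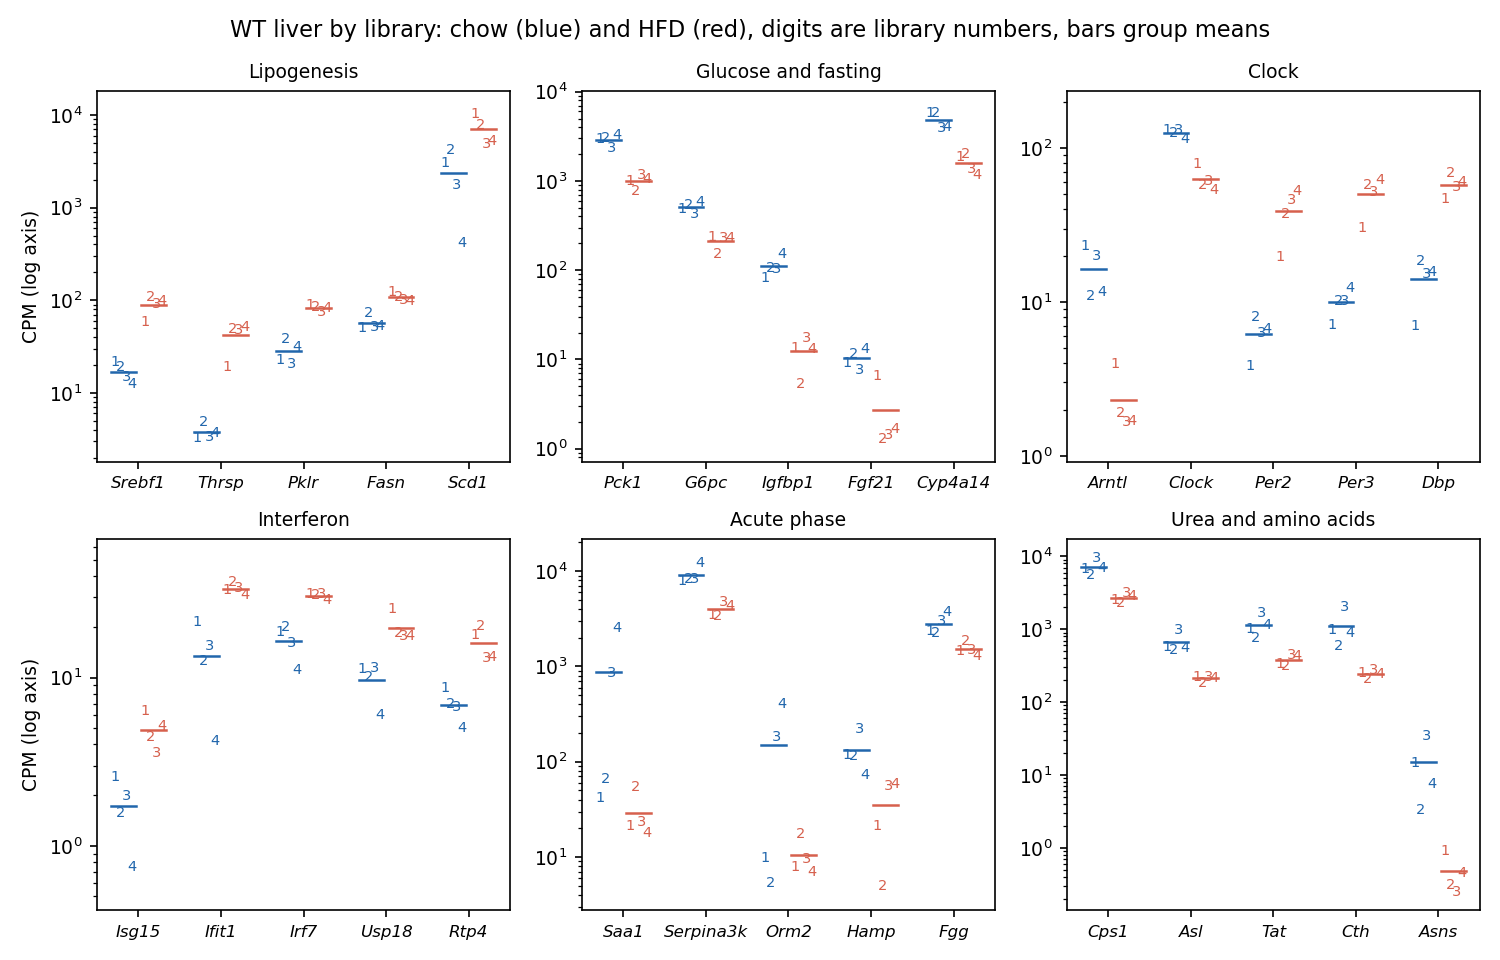
CPM on a log axis of 5 genes of each of 6 groups in WT liver, where each digit is the library of that number (chow blue, HFD red) and bars are group means. The diets separate in *Srebf1*, *Pck1*, *Arntl* and *Cps1*, chow libraries 3 and 4 stand above the others in *Saa1* and *Orm2*, and HFD library 1 is the HFD library nearest to chow in *Thrsp*, *Fgf21* and *Per3*.

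In fatty acid oxidation and ketogenesis, 6 of 28 genes rose and 5 fell (median -0.028), near the background shares, and without chow libraries 3 and 4, or with the offset for GC share, 2 rose and 5 fell. Without HFD library 4, 3 rose. Peroxisomal *Ehhadh* was at 1416, 2935, 1203 and 2090.0 CPM in the chow and 641, 483, 457 and 385 CPM in the HFD libraries (log2 fold change -1.96 ± 0.27, adjusted p = 9.5e-04). *Crot*, which exports shortened acyl chains from peroxisomes, was at 1963, 1999, 1727 and 2528 CPM on chow and 1175, 1095, 960.0 and 782 CPM on HFD (log2 fold change -1.03 ± 0.16, adjusted p = 0.0017). *Cpt1a*, the gate of fatty acids into mitochondria, was at 849, 962, 1135 and 1098 CPM on chow and 802, 645, 705 and 722 CPM on HFD (log2 fold change -0.49 ± 0.12, adjusted p = 0.017). The mitochondrial enzymes *Hadh* (log2 fold change 0.81 ± 0.12, adjusted p = 0.0012) and *Acads* (log2 fold change 0.54 ± 0.10, adjusted p = 0.0032) rose, and *Etfdh* (log2 fold change -0.46 ± 0.10, adjusted p = 0.0067), which passes electrons to the respiratory chain, fell.

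Targets of PPARα fell more often than they rose. Of 24, 11 fell and 4 rose (median -0.35), and 11 fell and 1 rose without chow libraries 3 and 4. *Cyp4a14*, an ω-hydroxylase of fatty acids, was at 1853, 1992, 1362 and 1152 CPM on HFD against 5729, 5729, 3967 and 3974 CPM on chow (log2 fold change -1.61 ± 0.22, adjusted p = 9.1e-04). Its relatives *Cyp4a10* (log2 fold change -0.88 ± 0.17, adjusted p = 0.0047) and *Cyp4a31* (log2 fold change -1.64 ± 0.28, adjusted p = 0.0027) fell as well, and the sharing of reads among these copies makes each one uncertain. *Angptl4*, an inhibitor of lipoprotein lipase, was at 106, 127, 97.4 and 115 CPM in the chow and 76.9, 53.4, 56.1 and 53.1 CPM in the HFD libraries (log2 fold change -0.90 ± 0.13, adjusted p = 0.0013). *Pdk4*, which blocks entry of pyruvate into mitochondria, was at 36.2, 29.3, 9.62 and 10.3 CPM on chow and 8.87, 4.64, 4.02 and 5.39 CPM on HFD (log2 fold change -1.94 ± 0.42, adjusted p = 0.0086). *Fgf21*, a fasting hormone, was at 9.17, 11.4, 7.53 and 13.1 CPM on chow and 6.57, 1.29, 1.44 and 1.66 CPM on HFD (log2 fold change -1.97 ± 0.45, adjusted p = 0.011), and without HFD library 1, which was above the other HFD libraries, the log2 fold change was -2.84. *Ppara* itself was higher, at 243, 271, 266 and 282 CPM on HFD against 181, 218, 174 and 207 CPM on chow (log2 fold change 0.44 ± 0.10, adjusted p = 0.01).

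Genes of glucose production and use were among the most often DE. The list held 11 higher and 8 lower genes of 26 (median 0.16), and 5 lower without HFD library 4. *Pck1* (ENSMUSG00000027513, chr2:173153048-173159273), the rate-limiting enzyme of gluconeogenesis, was at 2962, 3015, 2359 and 3303 CPM in the chow and 996, 775, 1166 and 1050.3 CPM in the HFD libraries (log2 fold change -1.55 ± 0.16, adjusted p = 3.5e-04). *G6pc*, which releases free glucose, was at 488, 532, 421 and 585 CPM on chow and 233, 150.4, 232 and 229.9 CPM on HFD (log2 fold change -1.26 ± 0.16, adjusted p = 6.7e-04), with HFD library 2 the lowest. No HFD library of *Pck1* or *G6pc* reached the lowest chow library. *Fbp1* fell too (log2 fold change -0.58 ± 0.13, adjusted p = 0.0098). On the side of use, *Khk*, fructokinase, was at 70.9, 91.8, 68.4 and 69.5 CPM on chow and 166, 172, 161 and 162 CPM on HFD (log2 fold change 1.14 ± 0.11, adjusted p = 1.9e-04). *Slc2a2*, the hepatocyte glucose transporter, was at 339, 461, 431 and 367 CPM on HFD against 189.7, 279, 158 and 264 CPM on chow (log2 fold change 0.84 ± 0.18, adjusted p = 0.0081), beside *Pklr* above.

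Insulin signalling genes were DE in both directions (9 higher, 8 lower of 23, median 0.061), and 3 rose and 7 fell with the offset for GC share. Without HFD library 4, 5 rose. *Igfbp1* (ENSMUSG00000020429, chr11:7197782-7202546), a binding protein that insulin represses, was at 81.9, 107, 104 and 149.9 CPM in the chow and 13.5, 5.25, 17.5 and 13.1 CPM in the HFD libraries (log2 fold change -3.17 ± 0.31, adjusted p = 2.6e-04), an 8.97-fold fall. Both insulin receptor substrates fell, *Irs1* from 71.6, 83.6, 54.8 and 73.7 to 53.3, 40.2, 43.0 and 43.3 CPM (log2 fold change -0.66 ± 0.13, adjusted p = 0.0052) and *Irs2*, the one induced by fasting, from 33.5, 50.9, 31.5 and 40.6 to 26.2, 19.4, 23.8 and 24.2 CPM (log2 fold change -0.75 ± 0.15, adjusted p = 0.0055). The regulatory subunit of PI3 kinase *Pik3r1* (log2 fold change 0.86 ± 0.12, adjusted p = 9.5e-04) and the catalytic *Pik3cb* (log2 fold change 0.63 ± 0.12, adjusted p = 0.0048) rose, and *Pdpk1*, the kinase that activates AKT, fell (log2 fold change -0.53 ± 0.077, adjusted p = 0.0011). Neither diet group of *Enho* reached the other. *Enho*, the gene of the peptide adropin, was at 10.4, 3.82, 14.3 and 10.8 CPM on chow and 2.52, 2.37, 1.83 and 2.22 CPM on HFD (log2 fold change -2.10 ± 0.33, adjusted p = 0.0017). The insulin receptor *Insr* did not pass the test (log2 fold change 0.055 ± 0.093, adjusted p = 0.71).

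In the growth hormone axis, 6 of 16 genes rose and 5 fell (median 0.14). *Ghr*, the growth hormone receptor, was at 337, 329, 249 and 405 CPM on chow and 452, 525, 667 and 630.4 CPM on HFD (log2 fold change 0.78 ± 0.16, adjusted p = 0.0072). *Stat5a* (log2 fold change 0.60 ± 0.12, adjusted p = 0.005), *Igfals* (log2 fold change 0.75 ± 0.13, adjusted p = 0.0026) and *Igfbp4* (log2 fold change 0.57 ± 0.10, adjusted p = 0.0036) rose. *Igf1*, the main product of the axis, was at 396, 434, 553 and 523 CPM on HFD against 664, 585, 569.5 and 569 CPM on chow (log2 fold change -0.33 ± 0.13, adjusted p = 0.087). Its call was lost without any library but HFD library 3 and with the offset for GC share (-0.12, adjusted p = 0.48). The log2 fold change of *Igf1* lay between -0.40 and -0.24 when 1 library was left out.

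Amino acid breakdown and the urea cycle were lower on HFD. Of 38 genes 19 fell and 7 rose (median -0.60), and 4 rose without HFD library 3 or without HFD library 4. *Cps1* (ENSMUSG00000025991, chr1:67123026-67231259), the entry enzyme of the urea cycle, was at 6752, 5627, 9622 and 6854 CPM in the chow and 2545, 2328, 3132 and 2874 CPM in the HFD libraries (log2 fold change -1.41 ± 0.19, adjusted p = 9.1e-04). *Asl* (log2 fold change -1.64 ± 0.19, adjusted p = 5.4e-04), *Arg1* (log2 fold change -1.46 ± 0.21, adjusted p = 0.0011) and *Ass1* (log2 fold change -0.70 ± 0.21, adjusted p = 0.037), the 3 cytosolic steps of the cycle, fell. *Otc*, a mitochondrial step, did not pass the test (log2 fold change 0.24 ± 0.16, adjusted p = 0.31). In *Cps1* the lowest chow library was above the highest HFD library by far. *Tat*, tyrosine aminotransferase, was at 1017, 758, 1677 and 1130.1 CPM on chow and 328, 309, 437 and 425 CPM on HFD (log2 fold change -1.61 ± 0.22, adjusted p = 9.9e-04). *Cth*, which makes cysteine, was at 963, 585, 2001 and 895 CPM on chow and 249, 206, 277 and 239.7 CPM on HFD (log2 fold change -2.19 ± 0.31, adjusted p = 0.0011). *Got1* (log2 fold change -2.12 ± 0.36, adjusted p = 0.0025) and *Sdsl* (log2 fold change -1.94 ± 0.25, adjusted p = 7.6e-04) also fell. In *Cps1*, *Asl*, *Tat* and *Cth* chow library 3 was the highest. The genes that rose included *Prodh*, proline dehydrogenase (log2 fold change 1.14 ± 0.16, adjusted p = 0.001). *Glul*, glutamine synthetase of the cells around central veins, was at 957, 977, 981 and 917 CPM on HFD against 241, 538, 167 and 473 CPM on chow (log2 fold change 1.43 ± 0.31, adjusted p = 0.0077).

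*Asns*, asparagine synthetase and a target of the integrated stress response, had one of the largest falls, from 14.6, 3.28, 34.8 and 7.55 CPM on chow to 0.900, 0.305, 0.251 and 0.452 CPM on HFD (log2 fold change -4.94 ± 0.75, adjusted p = 0.0014), and a log2 fold change of -4.19 without chow library 3. The list of that response and of endoplasmic reticulum stress as a whole was near the background, with 6 higher and 6 lower of 29 (median -0.16), and with the offset for GC share 4 rose and 9 fell. Without HFD library 3, HFD library 4 or both chow libraries 3 and 4, 3 rose. The chaperones *Hspa5* (log2 fold change -0.52 ± 0.11, adjusted p = 0.0083), *Hsp90b1* (log2 fold change -0.56 ± 0.11, adjusted p = 0.0053) and *Dnajc3* (log2 fold change -0.43 ± 0.095, adjusted p = 0.009) were modestly lower. *Shmt2*, of mitochondrial one-carbon metabolism, was higher (log2 fold change 0.62 ± 0.085, adjusted p = 9.5e-04).

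Apolipoprotein and lipoprotein assembly genes were 10 lower and 4 higher of 23 (median -0.15), and 10 and 1 with the offset for GC share. *Apob*, the core protein of very-low-density lipoprotein, was at 25896, 23628, 23649 and 27288 CPM in the chow and 14688, 16658, 17901 and 15404 CPM in the HFD libraries (log2 fold change -0.64 ± 0.18, adjusted p = 0.025), and *Mttp*, which loads it with lipid, fell as well (log2 fold change -0.52 ± 0.14, adjusted p = 0.022). *Apoa4* was at 858, 1504, 2663 and 2498 CPM on chow and 845, 778, 705 and 703 CPM on HFD (log2 fold change -1.31 ± 0.29, adjusted p = 0.0095), with chow libraries 3 and 4 the highest. *Apom* (log2 fold change -0.69 ± 0.10, adjusted p = 0.001), *Apoa5* (log2 fold change -0.73 ± 0.16, adjusted p = 0.0087) and *Apoc2* (log2 fold change -1.18 ± 0.27, adjusted p = 0.011) fell, and the lipoprotein receptor *Lrp1* rose (log2 fold change 0.61 ± 0.11, adjusted p = 0.0038).

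Bile acid genes fell more often than they rose (3 higher, 6 lower of 22, median 0.075, against 15.9% higher and 14.7% lower of all genes), and 2 higher and 6 lower without chow libraries 3 and 4. *Cyp7a1*, the rate-limiting enzyme of the classic pathway, was at 124, 205, 117 and 68.6 CPM on chow and 308, 192, 204 and 251 CPM on HFD (log2 fold change 0.89 ± 0.27, adjusted p = 0.039), with overlapping groups. Its log2 fold change without chow libraries 3 and 4 was 0.54 (adjusted p = 0.15). *Cyp8b1*, which sets the share of 12α-hydroxylated bile acids, was at 629, 236, 285 and 348 CPM on HFD against 576, 866, 609 and 930.4 CPM on chow (log2 fold change -0.99 ± 0.28, adjusted p = 0.029), HFD library 1 lying in the chow range. *Akr1d1*, of the same pathway, rose (log2 fold change 1.17 ± 0.30, adjusted p = 0.018). *Baat*, which conjugates bile acids (log2 fold change -0.44 ± 0.094, adjusted p = 0.0076), and *Abcb4*, the phospholipid exporter of bile (log2 fold change -0.52 ± 0.13, adjusted p = 0.017), fell. *Slco1a4*, an uptake transporter of organic anions, was at 252, 191, 359.8 and 269.7 CPM in the chow and 62.9, 96.5, 96.7 and 92.7 CPM in the HFD libraries (log2 fold change -1.62 ± 0.19, adjusted p = 5.5e-04).

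Of 32 xenobiotic P450 genes and their receptors 6 rose and 7 fell (median 0.16). Members of the Cyp3a family that were DE and had the smallest p were lower: *Cyp3a11*, the abundant drug-metabolizing form, was at 3823, 2814, 1766 and 2421 CPM on chow and 441, 886, 918 and 706 CPM on HFD (log2 fold change -1.87 ± 0.27, adjusted p = 0.0012), and *Cyp3a25* (log2 fold change -1.15 ± 0.15, adjusted p = 7.0e-04) and *Cyp3a59* (log2 fold change -1.59 ± 0.22, adjusted p = 0.001) fell, although these copies share reads. *Cyp2a5*, coumarin hydroxylase, was at 162, 68.1, 64.2 and 39.1 CPM on chow and 227, 517, 432 and 399 CPM on HFD (log2 fold change 2.24 ± 0.40, adjusted p = 0.0031). *Nr1i3*, the constitutive androstane receptor, rose (log2 fold change 1.04 ± 0.27, adjusted p = 0.021). *Cyp2b10*, the gene it is best known to induce, was at 0.900, 0.339, 0.215 and 0.113 CPM on HFD against 0.399, 1.57, 1.62 and 3.29 CPM on chow (log2 fold change -2.17 ± 0.66, adjusted p = 0.037) and lost its call without chow library 4 (-1.58) or HFD library 4 (-1.86). Without HFD library 1 its log2 fold change was -2.90. Conjugation enzymes were more often higher (12 of 39) than lower (5), with a median of 0.27. They included *Gstt1*, at 62.6, 81.8, 33.8 and 54.0 CPM in the chow and 124, 152, 149.8 and 138 CPM in the HFD libraries (log2 fold change 1.27 ± 0.21, adjusted p = 0.0021), *Gstt3* (log2 fold change 1.37 ± 0.14, adjusted p = 3.6e-04), *Gstm2* (log2 fold change 0.95 ± 0.15, adjusted p = 0.002), *Gstk1* (log2 fold change 0.69 ± 0.10, adjusted p = 0.001) and *Sult1b1* (log2 fold change 0.91 ± 0.11, adjusted p = 5.9e-04). Without chow libraries 3 and 4, 8 of these enzymes rose and 5 fell, and with the offset for GC share 15 and 3.

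Genes that male mouse liver expresses more than female under pulsed growth hormone were 10 lower and 5 higher of 25 (median -0.31), and 6 lower without chow library 1 or without HFD library 4. *Serpina1e* and *Moxd1*, given above, are on this list, with the complement genes *C8b* (log2 fold change -1.04 ± 0.15, adjusted p = 0.001) and *C6* (log2 fold change -0.82 ± 0.12, adjusted p = 0.0012). *Keg1*, an acyltransferase-like gene of kidney and liver, was at 34.1, 33.4, 18.9 and 30.9 CPM on chow and 80.1, 62.2, 158 and 136 CPM on HFD (log2 fold change 1.88 ± 0.29, adjusted p = 0.0014), and *Cyp2u1* rose as well (log2 fold change 1.32 ± 0.14, adjusted p = 3.8e-04). Of 13 female-biased genes 6 fell and 3 rose (median -0.0089), and 1 rose with the offset for GC share, and likewise without chow libraries 3 and 4, when 4 fell. *Cyp2b9* rose from this list. *Cux2*, a repressor of male genes, was at 6.31, 1.43, 4.29 and 0.834 CPM on chow and 0.315, 0.576, 0.144 and 0.415 CPM on HFD (log2 fold change -3.09 ± 0.65, adjusted p = 0.0072). Without chow library 1 the log2 fold change was -2.40. *Cyp2c40* (log2 fold change -2.96 ± 0.53, adjusted p = 0.0033) and *Nipal1* (log2 fold change -3.75 ± 0.74, adjusted p = 0.0054, and -4.47 without HFD library 1) also fell. Of 18 major urinary protein genes, pheromone carriers that share most of their sequence, 1 rose and 2 fell, among them *Mup2* (log2 fold change 1.06 ± 0.23, adjusted p = 0.0089) and *Mup22* (log2 fold change -0.61 ± 0.11, adjusted p = 0.0027), each uncertain for that reason. The summed level of the family was 4110.0 to 9967 CPM on chow and 5439.5 to 8218 CPM on HFD, so the groups overlapped.

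Core clock genes separated the diets in opposite directions. The clock is a loop in which the activators BMAL1 (*Arntl*) and CLOCK or NPAS2 drive the *Per*, *Cry* and *Dbp* genes, whose products repress or follow them at a later hour. Of 21 clock genes 13 rose and 4 fell (median 0.81). *Arntl* was at 3.96, 1.90, 1.65 and 1.70 CPM on HFD against 23.1, 10.9, 19.9 and 11.5 CPM on chow (log2 fold change -2.84 ± 0.33, adjusted p = 5.3e-04). *Npas2* was at 2.32, 1.64, 3.01 and 1.18 CPM in the chow and 0.946, 0.102, 0.0359 and 0.339 CPM in the HFD libraries (log2 fold change -2.54 ± 0.62, adjusted p = 0.015). Without HFD library 1 the log2 fold change of *Npas2* was -3.61. *Clock* fell as well (log2 fold change -1.0 ± 0.12, adjusted p = 5.6e-04). Genes of the repressing and output arms were higher on HFD. *Per2* was at 3.84, 7.95, 6.26 and 6.71 CPM on chow and 19.7, 37.1, 46.2 and 52.4 CPM on HFD (log2 fold change 2.65 ± 0.30, adjusted p = 5.0e-04). *Per3* was at 7.07, 10.2, 10.2 and 12.4 CPM on chow and 30.4, 57.7, 51.7 and 61.8 CPM on HFD (log2 fold change 2.35 ± 0.23, adjusted p = 2.4e-04). *Dbp* was at 46.6, 68.4, 56.2 and 60.4 CPM on HFD against 6.96, 18.5, 15.3 and 15.8 CPM on chow (log2 fold change 2.04 ± 0.25, adjusted p = 5.6e-04). *Tef*, a relative of *Dbp*, rose (log2 fold change 1.22 ± 0.14, adjusted p = 4.8e-04), as did the output genes *Usp2* and *Wee1*. *Usp2* was at 2.10, 1.43, 3.01 and 3.34 CPM in the chow and 5.94, 30.4, 25.1 and 26.1 CPM in the HFD libraries (log2 fold change 3.21 ± 0.46, adjusted p = 0.0011) and *Wee1* at 1.45, 3.71, 0.927 and 2.37 CPM on chow and 7.74, 27.0, 24.2 and 22.7 CPM on HFD (log2 fold change 3.17 ± 0.42, adjusted p = 8.7e-04). *Per1* (log2 fold change 0.69 ± 0.45, adjusted p = 0.3), *Cry1* (log2 fold change 0.28 ± 0.28, adjusted p = 0.52) and *Nr1d1* (log2 fold change 0.17 ± 0.21, adjusted p = 0.62) did not pass the test. In *Arntl*, *Per2*, *Per3* and *Dbp* HFD library 1 was the HFD library nearest to chow, and its lane differed from that of the remaining HFD libraries. Hours of harvest were not given, so hour and diet cannot be told apart in these genes.

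Activators of the clock bind the E-box CACGTG. This hexamer, which reads the same on both strands, occurred in the 250 bases before the RefSeq start of 5 of 17 tested clock genes with a promoter entry (29.4%) and of 6.05% of all 27025 promoters. Of the 10169 promoters of genes tested, 8.47% held it. Among clock genes with a promoter entry, 3 of the 9 that rose and 0 of the 4 that fell held it. The genes are chosen as clock genes, for which this hexamer is known, so its share among them is no finding. A match is a sequence feature and no measure of binding. Stretches of 2 genes that rose, *Tef* and *Ciart*, and of *Cry1*, which has the same hexamer and did not pass the test, are shown to place the E-box beside the values, each 5′ to 3′ on the strand of the gene, RefSeq on GRCm38.p6, with the E-box nearest to the start in capitals.
*Tef* (chr15:81802522-81802575, plus strand): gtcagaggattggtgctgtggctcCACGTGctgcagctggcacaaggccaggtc
*Ciart* (chr3:95882243-95882296, minus strand): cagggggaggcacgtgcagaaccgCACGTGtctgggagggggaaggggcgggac
*Cry1* (chr10:85185085-85185138, minus strand): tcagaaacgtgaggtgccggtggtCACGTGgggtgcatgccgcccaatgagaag
*Ciart*, a repressor of the clock, was at 0.761, 0.250, 3.13 and 1.05 CPM on chow and 1.76, 6.17, 6.60 and 6.37 CPM on HFD (log2 fold change 2.35 ± 0.58, adjusted p = 0.015, and 2.96 without chow library 3), and its stretch holds a further E-box in lower case. *Cry1* was at 2.61, 4.91, 6.78 and 7.35 CPM on HFD against 5.36, 4.39, 5.10 and 3.25 CPM on chow.

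Genes of the interferon response, which infected or inflamed tissue turns on, rose. Of 26 tested, 20 rose (median 0.81), and 0 fell by edgeR, 0 by DESeq2 and 0 at an unadjusted p under 0.05. *Isg15*, a ubiquitin-like modifier, was at 2.57, 1.57, 1.97 and 0.746 CPM in the chow and 6.30, 4.40, 3.55 and 5.16 CPM in the HFD libraries (log2 fold change 1.51 ± 0.31, adjusted p = 0.0067). *Ifit1*, which binds foreign RNA, was at 21.3, 12.6, 15.4 and 4.17 CPM on chow and 33.1, 37.0, 34.2 and 30.7 CPM on HFD (log2 fold change 1.34 ± 0.34, adjusted p = 0.017). *Irf7*, a transcription factor of the response, was at 18.7, 19.9, 16.1 and 11.1 CPM on chow and 31.5, 30.9, 31.4 and 28.7 CPM on HFD (log2 fold change 0.89 ± 0.15, adjusted p = 0.0026). *Usp18* (log2 fold change 1.04 ± 0.20, adjusted p = 0.0043), a brake on the response, *Rtp4* (log2 fold change 1.22 ± 0.19, adjusted p = 0.0016) and *Psmb9* (log2 fold change 0.97 ± 0.13, adjusted p = 9.4e-04), a subunit of the immunoproteasome, also rose with separate groups. *Mx1* (log2 fold change 0.27 ± 0.34, adjusted p = 0.61), *Mx2* (log2 fold change 0.46 ± 0.29, adjusted p = 0.29) and *Rsad2* (log2 fold change 0.33 ± 0.32, adjusted p = 0.5) did not pass the test, and *Mx2* passed it without chow library 1 (0.78). Chow library 4 was the lowest of all 8 in *Isg15*, *Ifit1*, *Irf7*, *Usp18* and *Rtp4*. Without chow libraries 3 and 4, 16 of the genes rose, with a median of 0.61.

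The interferon-stimulated response element, searched as GAAA, any 2 bases and GAAA again, on both strands, occurred in the 250 bases before the start of 11 of 20 tested genes of this list with a promoter entry (55%), in 8 of the 17 that rose, and in 3.04% of all promoters and 2.82% of those of genes tested. The genes are chosen for interferon response, for which this element is known, so its share among them is no finding. The stretches below, with the element nearest to the start in capitals, belong to 2 genes with values above and to *Ifit3* and *Ifit3b*, which show how alike these copies are.
*Isg15* (chr4:156200851-156200908, minus strand): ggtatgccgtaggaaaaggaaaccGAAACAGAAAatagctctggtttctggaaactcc
*Ifit1* (chr19:34640780-34640837, plus strand): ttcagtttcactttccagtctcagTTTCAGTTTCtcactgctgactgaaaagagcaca
*Ifit3* (chr19:34583383-34583440, plus strand): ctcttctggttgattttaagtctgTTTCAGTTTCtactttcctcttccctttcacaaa
*Ifit3b* (chr19:34607779-34607836, plus strand): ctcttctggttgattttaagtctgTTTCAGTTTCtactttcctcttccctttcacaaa
The stretches of *Isg15* and *Ifit1* hold further matches in lower case. Those of *Ifit3* and *Ifit3b* are identical, and their log2 fold changes were 1.3 ± 0.25 and 1.26 ± 0.33. Reads that fit both copies are not counted.

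Acute phase genes, which the liver raises in inflammation, were lower on HFD in 18 of 27 and higher in 2 (median -0.89). Several were highest by far in chow libraries 3 and 4. *Saa1*, serum amyloid A, was at 21, 54.9, 23.2 and 17.9 CPM on HFD against 41.1, 66.0, 853 and 2546 CPM on chow (log2 fold change -4.90 ± 1.15, adjusted p = 0.012). *Saa2* was at 14.5, 28.2, 667 and 2513 CPM in the chow and 14.1, 23.3, 13.1 and 9.35 CPM in the HFD libraries (log2 fold change -5.75 ± 1.38, adjusted p = 0.013). Chow library 1 lay within the HFD range in both genes and chow library 2 just above it. Without chow library 4 the log2 fold changes were -3.44 and -3.97, and without chow libraries 3 and 4 they were -0.87 (adjusted p = 0.17) and -0.51 (adjusted p = 0.34). *Orm2*, orosomucoid, was at 9.86, 5.35, 179.9 and 399.7 CPM on chow and 7.79, 17.5, 9.47 and 6.90 CPM on HFD (log2 fold change -3.83 ± 1.10, adjusted p = 0.03), with a log2 fold change of -2.58 without chow library 4 and of 0.46, adjusted p = 0.44, without chow libraries 3 and 4. The list as a whole had 7 lower and 4 higher genes without the 2 libraries (median -0.27), and its summed level was 34254, 30163, 50333 and 69302 CPM in the chow libraries and 20795, 27049.5, 23893 and 21165 CPM on HFD. Genes that fell also without them included *Serpina3k*, at 7826, 8338, 8336 and 12086 CPM on chow and 3504, 3412, 4752 and 4306 CPM on HFD (log2 fold change -1.20 ± 0.19, adjusted p = 0.002). Its log2 fold change without chow libraries 3 and 4 was -1.01 (adjusted p = 0.0068), that of *Fgg*, of fibrinogen, -0.59 (adjusted p = 0.035), and that of *Cp*, ceruloplasmin, -0.51 (adjusted p = 0.032). *Fgb*, also of fibrinogen, fell with all libraries (log2 fold change -0.92 ± 0.22, adjusted p = 0.012). *Saa4*, the serum amyloid A gene that inflammation does not induce, rose, at 111, 238, 182 and 172 CPM on HFD against 68.7, 51.8, 57.9 and 66.2 CPM on chow (log2 fold change 1.52 ± 0.20, adjusted p = 7.5e-04). *Hamp2* was at 1.63, 0.464, 0.348 and 0.527 CPM in the chow and 8.10, 3.22, 10.7 and 13.2 CPM in the HFD libraries (log2 fold change 3.42 ± 0.51, adjusted p = 0.0012). Its log2 fold change was 4.21 without chow library 1. *Hamp*, the iron hormone hepcidin, fell (log2 fold change -1.89 ± 0.59, adjusted p = 0.042), a call that was lost without chow library 3 (-1.52). In summed neutrophil markers chow libraries 3 and 4 were at 7.53 and 8.91 CPM, against 6.27 and 4.10 CPM in chow libraries 1 and 2 and 4.11 to 7.15 CPM on HFD. Chow library 4 was at 71.1 CPM in summed markers of recruited or lipid-associated macrophages (30.6 to 40.8 CPM in the other 7) and at 59.9 CPM in those of cholangiocytes (18.3 to 31.0 CPM in the other 7). The gene Spp1 is on both of these lists, so the sums are not independent, and its own values are not given here. Lymphocyte markers were lowest in chow libraries 3 and 4, at 37.8 and 28.9 CPM (45.2 to 76.2 CPM in the other 6). The part of these cells in the result was not tested.

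Complement and coagulation genes were 8 lower and 3 higher of 38 (median -0.053), with 4 lower without chow library 4, HFD library 1 or HFD library 4, 5 lower without chow libraries 3 and 4 and 1 higher with the offset for GC share. *Cfd*, adipsin, was at 0.254, 1.18, 0 and 0.176 CPM on chow and 5.94, 5.29, 7.11 and 13.5 CPM on HFD (log2 fold change 4.02 ± 0.55, adjusted p = 9.5e-04). Leaving out chow library 2 gave 5.40. *Pros1*, the anticoagulant protein S, fell (log2 fold change -0.70 ± 0.13, adjusted p = 0.0045).

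In NAD metabolism 5 of 19 genes rose and 5 fell (median 0.092). *Tdo2* (log2 fold change -0.85 ± 0.13, adjusted p = 0.0017), the first enzyme of tryptophan breakdown, and *Kynu* (log2 fold change -1.14 ± 0.13, adjusted p = 5.5e-04), further along the same path, fell. *Haao*, of the branch to NAD, rose (log2 fold change 0.67 ± 0.09, adjusted p = 9.1e-04). *Nmrk1*, nicotinamide riboside kinase, was at 15.5, 14.7, 9.85 and 13.1 CPM on chow and 27.7, 33.6, 45.8 and 45.5 CPM on HFD (log2 fold change 1.5 ± 0.18, adjusted p = 5.5e-04). *Nnmt*, which methylates nicotinamide, was at 50.8, 69.7, 55.1 and 54.7 CPM on HFD against 137, 87.7, 314 and 244 CPM on chow (log2 fold change -1.76 ± 0.32, adjusted p = 0.0037), with chow libraries 3 and 4 the highest.

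Targets of NRF2 and metal-response genes were near the background (1 higher, 3 lower of 15, median -0.089). *Slc30a10*, a manganese exporter (log2 fold change -1.28 ± 0.21, adjusted p = 0.002), and *Srxn1*, sulfiredoxin (log2 fold change -0.48 ± 0.14, adjusted p = 0.028), fell, and *Osgin1* rose (log2 fold change 0.72 ± 0.18, adjusted p = 0.016).

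Cell cycle genes, low in adult liver, were higher on HFD in 11 of 24 and lower in 2 (median 0.66), and higher in 4 where 10 counts in every library were required, which leaves out genes of low count. The replication helicase subunits *Mcm5*, at 1.01, 1.18, 0.695 and 1.84 CPM in the chow and 3.02, 3.39, 3.62 and 3.66 CPM in the HFD libraries (log2 fold change 1.47 ± 0.24, adjusted p = 0.002), and *Mcm3* (log2 fold change 0.96 ± 0.18, adjusted p = 0.0041) rose, as did *Ccnd1*, cyclin D1, at 10.8, 18.9, 11.6 and 6.41 CPM on chow and 32.4, 28.3, 28.9 and 24.1 CPM on HFD (log2 fold change 1.24 ± 0.25, adjusted p = 0.0059). *Ccnb1* rose from a low level, counted at under 1 CPM in every library (log2 fold change 3.41 ± 0.57, adjusted p = 0.0023). The stress genes *Gadd45a* and *Gadd45b* diverged, at log2 fold changes of 1.82 ± 0.30 and -2.0 ± 0.36. The marker of dividing cells *Mki67* did not pass the test (log2 fold change 0.52 ± 0.24, adjusted p = 0.14), but passed it without HFD library 4 (0.67).

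Immediate early genes rose in 6 of 17 and fell in 1 (median 0.39), and 2 rose without chow library 4, HFD library 3 or HFD library 4. With chow libraries 3 and 4 left out, 0 rose and 0 fell by edgeR, with 4 higher and 1 lower at an unadjusted p under 0.05. *Klf4* (log2 fold change 1.06 ± 0.30, adjusted p = 0.029) and *Myc* (log2 fold change 1.76 ± 0.51, adjusted p = 0.031) were among the genes that rose with all 8 libraries. *Myc* was at 2.57, 2.28, 2.32 and 1.58 CPM on chow and 6.93, 1.29, 9.55 and 12 CPM on HFD, with HFD library 2 below every chow library.

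Fibrosis genes were mostly not DE, with 1 higher and 3 lower of 32 (median 0.073), below the background shares. *Col1a1*, the main fibrillar collagen, was at 7.65, 4.40, 3.45 and 5.54 CPM on HFD against 2.83, 0.963, 1.74 and 4.92 CPM on chow (log2 fold change 0.97 ± 0.41, adjusted p = 0.11). Without chow libraries 3 and 4, 5 genes rose and 2 fell, and *Col1a1* was among those that rose, by 1.47 (adjusted p = 0.049), as it did without chow library 4 alone (1.49). *Tgfb1*, the fibrogenic cytokine, was at 2.28, 1.78, 1.97 and 1.8 CPM in the chow and 3.92, 3.05, 3.30 and 3.66 CPM in the HFD libraries (log2 fold change 0.82 ± 0.17, adjusted p = 0.0057). *Tgfbr1*, its receptor (log2 fold change -0.43 ± 0.079, adjusted p = 0.0036), and *Dcn*, decorin, a binder of TGFβ (log2 fold change -0.60 ± 0.12, adjusted p = 0.0069), fell, and so did the laminin gene *Lama2* (log2 fold change -0.82 ± 0.21, adjusted p = 0.018).

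**Figure D4:**
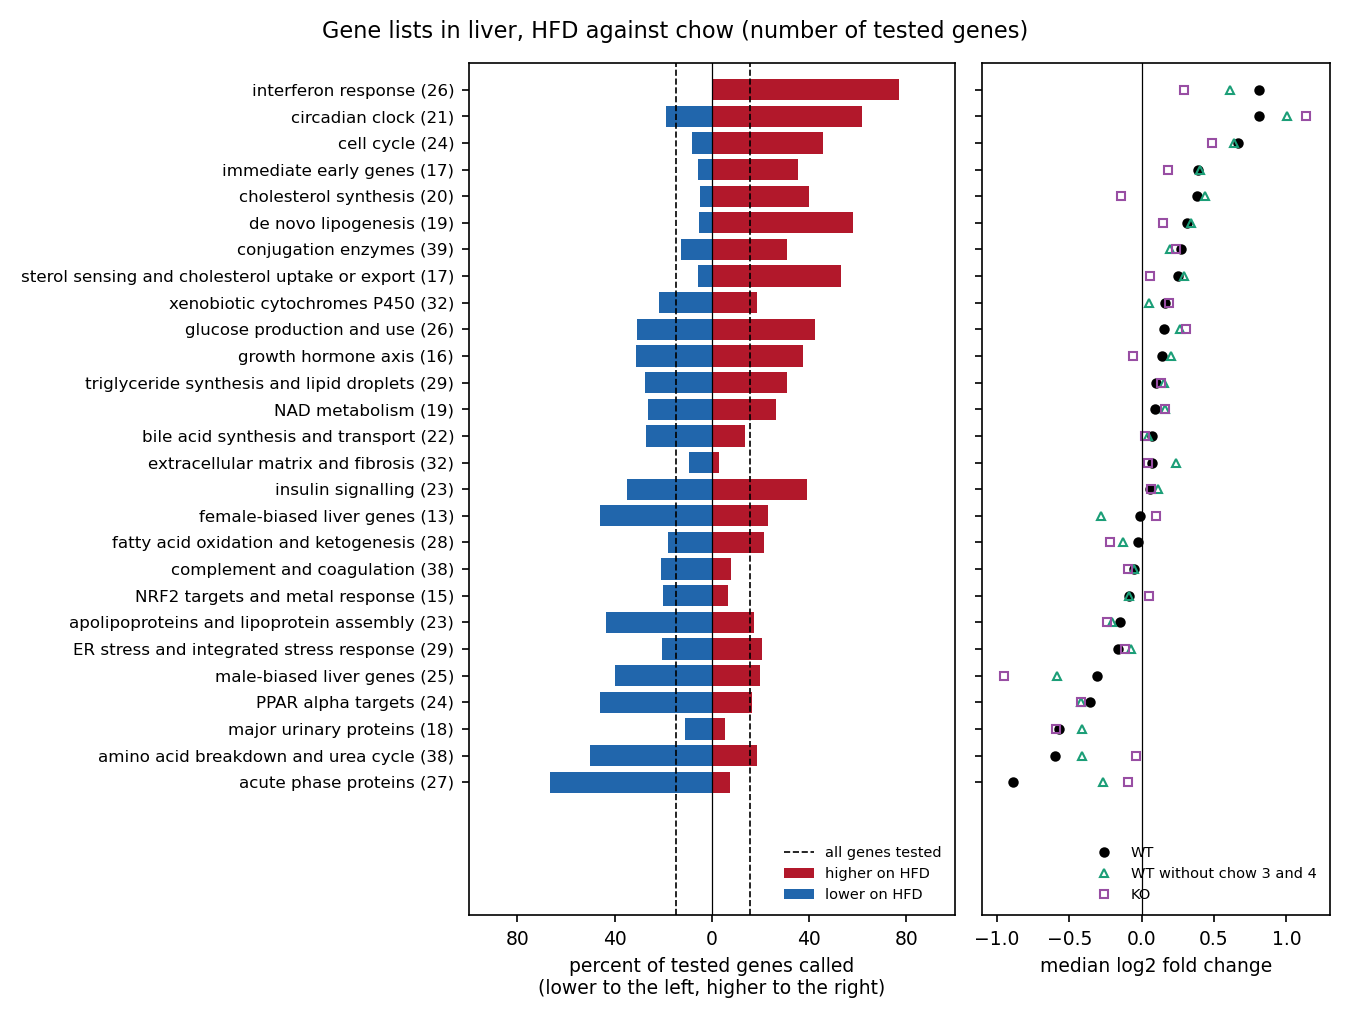
For 27 gene lists in liver, the left panel gives the percent of tested genes called higher (red, to the right) or lower (blue, to the left) on HFD in WT, with dashed lines at the 15.9% and 14.7% of all genes tested and the number of tested genes in parentheses. The right panel gives the median log2 fold change in WT (black circles), in WT without chow libraries 3 and 4 (green triangles) and in KO liver (purple squares). The interferon and clock lists have the highest medians in WT, and the acute phase list has the lowest (-0.89), which is -0.27 without chow libraries 3 and 4.

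Of 9 hepatocyte markers 6 fell and 1, *Ttr*, the thyroxine carrier, rose (log2 fold change 0.59 ± 0.15, adjusted p = 0.018), with summed levels of 55217 to 81905 CPM on chow and 60102 to 73725 CPM on HFD. Without chow library 4 or HFD library 2, 3 fell, and without HFD library 4 or both chow libraries 3 and 4, 2. Without both chow libraries 3 and 4, 2 of these markers rose. Few markers of other liver cells were DE in WT. Of 14 Kupffer cell and macrophage markers 1 fell, and 0 rose by edgeR, 0 by DESeq2 and 0 at an unadjusted p under 0.05. Their summed level was 484 to 523 CPM on chow and 339 to 570.4 CPM on HFD. With genotype as a covariate over all 16 livers 7 of the 14 fell, as did 7 in KO liver alone (median -0.42). Without chow libraries 3 and 4, 0 fell by edgeR and 0 at an unadjusted p under 0.05. Of 11 markers of recruited or lipid-associated macrophages *Ccl2* rose, at 0.652, 0.250, 0.348 and 0.0878 CPM on chow and 1.04, 1.32, 0.897 and 0.8294 CPM on HFD (log2 fold change 1.57 ± 0.44, adjusted p = 0.027, and 2.29 without chow library 1), and *Cd9* fell (log2 fold change -1.40 ± 0.18, adjusted p = 8.5e-04). Of these markers 0 rose by edgeR without chow libraries 3 and 4 and 2 at an unadjusted p under 0.05. *Trem2*, of lipid-associated macrophages, was at 0.544, 0.178, 1.62 and 0.834 CPM on chow and 0.810, 0.712, 0.825 and 0.264 CPM on HFD (log2 fold change -0.053 ± 0.56, adjusted p = 0.96). Stellate cell markers were lower in 2 of 10, with summed levels of 371 to 503 CPM on chow and 355 to 379 CPM on HFD. Of 10 sinusoidal endothelial markers 1 rose and 1, *Lyve1*, fell (log2 fold change -1.24 ± 0.30, adjusted p = 0.015), and 0 rose by edgeR without chow libraries 3 and 4, with 0 at an unadjusted p under 0.05. With genotype as a covariate 4 fell, and in KO liver 6 (median -0.45). Of the cholangiocyte markers *Sox9* fell (log2 fold change -1.12 ± 0.29, adjusted p = 0.019). None of 7 lymphocyte markers was DE by edgeR, with 0 lower by DESeq2 and 1 lower at an unadjusted p under 0.05, and none of 3 neutrophil markers, with 0 and 0. By edgeR 1 lymphocyte marker was lower without chow libraries 3 and 4.

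Of the adipocyte markers, 4 of 6 rose and the summed level was 123 to 401 CPM on chow and 1368 to 2396 CPM on HFD. *Car3*, carbonic anhydrase 3, which male mouse liver also makes, accounted for most of it, at 1309, 1601, 2156 and 2333 CPM on HFD against 262, 333, 60.8 and 168 CPM on chow (log2 fold change 3.16 ± 0.43, adjusted p = 9.4e-04). The defining genes were near 0: *Adipoq* was at 0, 0.0357, 0 and 0.0439 CPM in the chow and 0.225, 0.102, 0.395 and 0.113 CPM in the HFD libraries, and Plin1, Lep and Retn stayed under 1 CPM in every library. Exocrine pancreas markers summed to 2.55 to 12.5 CPM on chow and 5.04 to 9.01 CPM on HFD, with *Cela1* higher (log2 fold change 0.95 ± 0.25, adjusted p = 0.019). Blood markers were higher in 3 of 9, and their summed level was 174 to 484 CPM on chow, lowest in chow library 3, and 348 to 1028 CPM on HFD. *Alas2*, of heme synthesis in red cells, was among them (log2 fold change 0.60 ± 0.18, adjusted p = 0.034). With the offset for GC share 1 of the blood markers was higher, and 0 were by edgeR without chow libraries 3 and 4, with 1 at an unadjusted p under 0.05. The part of these cells in the results was not tested.

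*Fam13a* (ENSMUSG00000037709, chr6:58932090-59024549), the gene under study in the series, was at 42.3, 52.1, 55.2 and 33.8 CPM on chow and 29.2, 28.6, 22.8 and 22.9 CPM on HFD (log2 fold change -0.82 ± 0.15, adjusted p = 0.0038), and the groups did not overlap.

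Beside *Scd1*, *Plin2*, *Igf1* and *Cyp2b10* above, 12 further genes that the naming rule took passed the FDR with all 8 libraries but not in every fit with 1 library left out. The log2 fold changes of these 12 kept their sign in all of these fits. The immediate early genes *Fos* (log2 fold change 1.22 ± 0.42, adjusted p = 0.059), *Jun* (log2 fold change 1.35 ± 0.44, adjusted p = 0.049) and *Atf3* (log2 fold change 1.15 ± 0.39, adjusted p = 0.056) were higher on HFD. So were the α-globin genes *Hba-a1* (log2 fold change 0.95 ± 0.38, adjusted p = 0.097) and *Hba-a2* (log2 fold change 1.23 ± 0.41, adjusted p = 0.051), near-identical copies that mark blood, and *Dnase1l3* (log2 fold change 0.38 ± 0.12, adjusted p = 0.047), a marker of sinusoidal endothelium. Lower on HFD were *Hnf4a* (log2 fold change -0.33 ± 0.10, adjusted p = 0.041), a transcription factor of hepatocyte identity, *Serpina1a* (log2 fold change -0.28 ± 0.10, adjusted p = 0.067), *Mup11* (log2 fold change -1.28 ± 0.52, adjusted p = 0.099), the macrophage marker *Cd163* (log2 fold change -0.48 ± 0.17, adjusted p = 0.065), the stellate cell marker *Rgs5* (log2 fold change -0.47 ± 0.18, adjusted p = 0.08) and the zinc exporter *Slc30a1* (log2 fold change -0.31 ± 0.10, adjusted p = 0.046). *Mup11* moved most, to -0.64 without chow library 4, and *Fos* was at 0.72 without HFD library 4. None of the 12 was DE without chow libraries 3 and 4.

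The same comparison in liver of KO males was made with 4 further libraries on each diet, from other mice, and gives the same measure in samples that the WT comparison did not use. The lanes coincide with diet there as well, and 1 HFD library of KO mice held 75.4% ribosomal RNA and 4959783 counts. On chow, KO libraries 1 and 4 held 45.9% and 30.5% ribosomal RNA (6917860 and 9465341 counts), and the other 5 KO libraries at most 4.97%. *Fam13a* itself was at 22.1, 22, 19.6 and 39.1 CPM in KO on chow and 16.9, 11.5, 10.8 and 11.3 CPM in KO on HFD, and at 36.0, 44.4, 46.6 and 28.7 and 24.8, 24.2, 19.3 and 19.5 CPM in WT, on a common scale of 16 libraries. KO chow library 4, at 39.1 CPM, lay within the range of WT on chow. Counts are per gene and do not show the deleted exon by itself, and the cause of the level left in KO was not tested. In KO liver 2718 genes were DE (20.6% of those tested), 10.6% higher and 9.94% lower. Of the 4197 genes that were DE in WT and tested in KO, 3949 had the same sign there, 1929 were also DE with that sign and 7 were DE with the opposite sign. Across the 13204 genes tested in both, Spearman's rho of the 2 log2 fold changes was 0.67, a description across genes, and GC share had a rho of 0.26 with the fold change in KO.

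The difference of the diet effect between genotypes was tested as an interaction in the 16 liver libraries. By edgeR's quasi-likelihood test 0 of 14476 genes passed an FDR of 10% (0%), and DESeq2 called 24. By the edgeR test 928 of the 14476 had an unadjusted p under 0.05, a threshold that many genes pass by chance alone. The 5 genes with the smallest p are given as values. *Stard4* was at 27.3, 23.5, 21.6 and 18.9 CPM on chow and 20.4, 23.3, 24.9 and 24.6 CPM on HFD in KO, and at 17.0, 21.8, 12.8 and 21.6 and 43.4, 35.8, 51.6 and 49.8 CPM in WT (adjusted p = 0.24). *Slco1a4* had log2 fold changes of -1.62 in WT and -0.050 in KO, *Sqle* of 0.021 and -2.88, *Zfp9* of -1.96 and -0.40, and *Il1a* of 0.41 and -0.97 (adjusted p = 0.25 for each of these 4 differences). *Saa1* was at 13.9, 9.93, 32.7 and 18 CPM in KO on chow, with no library like chow libraries 3 and 4 of WT.

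In KO, 10.6% of all genes tested were higher and 9.94% lower, and only some lists are counted here. Clock genes in KO were 14 higher and 5 lower of 21, and PPARα targets 1 and 13 of 24. Interferon-response genes were 5 and 0 of 26, acute phase genes 7 and 7 of 27, and cholesterol synthesis genes 1 and 7 of 20. Genes of amino acid breakdown and the urea cycle were 10 and 13 of 38 in KO (median -0.035). In WT they were 7 and 19 (median -0.60). Genes of de novo lipogenesis were 6 and 4 of 19 in KO (median 0.15), against 11 and 1 in WT (median 0.32). No difference between the genotypes was tested for a list.

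**Figure D5:**
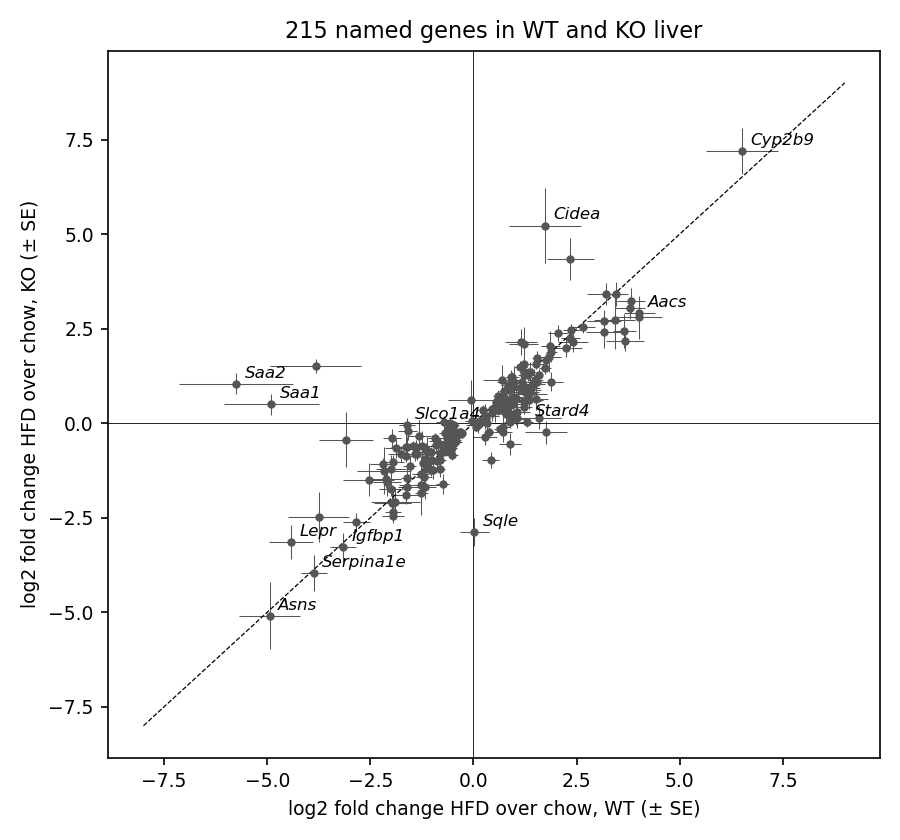
Log2 fold change of HFD over chow in WT (horizontal) and KO liver (vertical) for 215 named genes tested in both, with bars of 1 SE and a dashed line of equality. *Igfbp1*, *Serpina1e* and *Asns* lie near the line. *Saa1*, *Saa2*, *Sqle* and *Cidea* lie away from it.

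Overlap with other genes limits some values. Of the 220 genes given with values, 71 overlap a gene annotated on the other strand, *Srebf1*, *Arntl* and *Dbp* among them, and 26 one on the same strand. The libraries were stranded, but which of the aligner's strand columns was kept was not given in the sources used here, so such reads cannot be told apart.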

How the data were processed

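Strand-specific RNA sequencing libraries of liver were aligned by the authors with STAR to the mouse genome (GRCm38, mm10) with Gencode M11 annotation. The submitters' processing notes name version 2.5.3a, and the paper's methods give another. The deposited table holds raw read counts per gene from STAR, which counts reads unique to one gene; the strand column kept was not given in the sources used here. Genes were matched to GENCODE symbols, and those of families such as Mup, Saa or Cyp share reads. From the counts of the 8 WT liver libraries, genes with low counts were removed by filterByExpr, library sizes were scaled by TMM, and HFD was compared with chow by edgeR's quasi-likelihood test (edgeR 4.0.16, R 4.3.3) with Benjamini-Hochberg adjustment over all genes tested and an FDR of 10%. The study's methods also name edgeR and an FDR of 10%. Its fit of adipose tissue further adjusted for RNA quality, days to RNA extraction and hidden factors. The fit here held diet only, because RNA quality and days to extraction are not in the labels. KO liver was fitted likewise, and the interaction in 16 libraries. Total counts ran from 10219345 to 28723319 per library, and a mean over 4 libraries carries the spread given by its standard error. Replicate numbers name libraries only.

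Genes were named by a rule: the 8 higher and 8 lower of smallest p whose groups do not overlap and the 5 higher and 5 lower of largest fold, all at a mean of 5 CPM or more, up to 5 DE genes of smallest p in each list, key genes, and 5 interaction genes. It took 178 genes, of which 172 are given and the rest are not reported here, and 48 others were added after their values were seen. Members, lists and rule were chosen with earlier results of these data known. Alternatives were DESeq2 1.42.0, limma-voom (limma 3.58.1), other scalings and filters, 1 surrogate variable (sva 3.50.0), all 16 livers and each library left out. An offset for GC share, a spline with 5 degrees of freedom fitted to each library, and the fit without chow libraries 3 and 4 were chosen after seeing the data. The edgeR fits of WT, KO and the interaction were tested on simulated data, and the alternatives were not. Promoter sequences came from RefSeq on GRCm38.p6. The series' other tissues were not analysed here.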

Additional observations from a re-analysis of the deposited data

Results flagged for a closer look

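Named genes gave 440 groups of 4 libraries, and depth, ribosomal RNA share and mitochondrial share were examined in each diet as well. In 37 of all these groups 1 library lay far from the other 3 by Dixon's criterion. They covered 33 genes and the share of ribosomal RNA. Chance flags about 1 in 20 groups. All values are CPM in WT liver unless named otherwise.

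HFD library 1 was the library apart in most HFD groups. It was highest in *Angptl4* (76.9, the others 53.1 to 56.1), *Arntl* (3.96, the others 1.65 to 1.90), *Elovl5* (803, the others 388 to 415), *Fgf21* (6.57, the others 1.29 to 1.66), *Insig2* (255, the others 85.3 to 107), *Peg3* (12.1, the others 6.32 to 6.88), *Plin5* (43.9, the others 22.6 to 25.6), *Sqle* (10.4, the others 4.81 to 5.20) and *Usp18* (25.7, the others 17.6 to 18.3). It was lowest in *Akr1d1* (146, the others 191 to 196), *Ciart* (1.76, the others 6.17 to 6.60), *Hsd3b3* (142, the others 193 to 199.96), *Slco1a4* (62.9, the others 92.7 to 96.7), *Sult1b1* (26.1, the others 33.8 to 35) and *Thrsp* (18.9, the others 47.5 to 52.0). Its share of ribosomal RNA, 3.43%, was also above that of the other HFD libraries (at most 0.0274%), and it was the only HFD library on lane 8. The part of lane and of ribosomal RNA in these values was not tested.

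HFD library 2 was highest in *Ifit3* (26.2, the others 19.8 to 20.3), *Rps7* (44.6, the others 37.6 to 38.6) and *Saa1* (54.9, the others 17.9 to 23.2). It was lowest in *G6pc* (150.4, the others 229.9 to 233). HFD library 4 was highest in *Cidea* (2.26, the others 0.373 to 0.610).

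On chow, library 1 was highest in *Hamp2* (1.63, the others 0.348 to 0.527), *Igf1* (664, the others 569 to 585) and *Rps7* (74.6, the others 61.5 to 62.8). Library 2 was highest in *Fasn* (73.3, the others 49.8 to 52.5), *Khk* (91.8, the others 68.4 to 70.9) and *Mup2* (4.92, the others 2.32 to 2.57). Library 3 was highest in *Acly* (122, the others 72.9 to 79.5), *Asl* (986, the others 520.3 to 579) and *Lepr* (201, the others 39.8 to 60.3), lowest in *Gm8941* (0.695, the others 3.30 to 3.82), and held 18.2% ribosomal RNA. Library 4 was highest in *Abtb2* (24.9, the others 19.0 to 19.4), *Cidea* (0.878, the others 0 to 0.107), *Cp* (1401, the others 1117 to 1161), *Cyp2b9* (3.07, the others 0 to 0.357) and *Serpina3k* (12086, the others 7826 to 8338).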

How the results depend on the processing

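No paired analysis was possible because the library names carry no animal or batch number shared between the diets. The count of DE genes in WT liver stayed within 1.5 times of 4333 under all 21 alternatives. It ran from 3011 (without HFD library 4) to 5912 (16 livers with genotype as a covariate). It was 4388 by limma-voom, 4314 by DESeq2, 4451 with upper-quartile scaling, where 46.6% of DE genes were higher against 51.9%, and 4217 with 1 surrogate variable. In KO liver it was 2718, and 1782 to 3075 with 1 library left out, lowest without HFD library 1 of KO (1799) or 2 (1782). The interaction called 0 genes by edgeR, 24 by DESeq2 and 43 without the filter on low counts. With 1 library left out it called 0 to 16: 1 without chow library 1 of WT, 15 without chow library 2 of WT, 16 without HFD library 2 of WT and 1 without HFD library 2 of KO.

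Log2 fold changes of genes in the text kept their direction except these, of which only *Orm2* was DE with all libraries. Without chow libraries 3 and 4 they were 0.46 for *Orm2*, 0.16 for *Acly*, -0.28 for *Alb* and 0.85 for *Trem2*. With genotype as a covariate they were 0.0046 for *Acly*, -0.0069 for *Cry1*, -0.19 for *Il1a*, -0.017 for *Insr*, -1.03 for *Sqle* and 0.23 for *Trem2*. With 1 surrogate variable they were 0.12 for *Acly*, -0.030 for *Alb* and 0.47 for *Trem2*, and by limma-voom 0.22 for *Trem2*. With the offset for GC share they were -0.020 for *Nr1d1* and -0.0021 for *Sqle*. With 1 library left out they ran from -0.12 to 0.16 for *Acly*, -0.064 to 0.32 for *Alb*, -0.011 to 0.54 for *Mx1*, -0.058 to 0.30 for *Nr1d1*, -0.31 to 0.26 for *Sqle* and -0.46 to 0.36 for *Trem2*. The causes were not tested. Genes at a mean of about 1 CPM or less in both groups, as *Cidea*, *Ccl2* or *Ccnb1*, rest on few counts, and 4 libraries a group limit the rest.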

Other observations

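Further gene families were counted by their symbols. They were chosen after the data were seen, so the counts are descriptions, and some members stand in the interferon list as well. Genes of cytosolic ribosomal proteins, which build the ribosome, were lower on HFD in 51 of 78 and higher in 1 (median log2 fold change -0.31), against 14.7% lower of all genes tested, and with the offset for GC share in 59. *Rps7* went from a mean of 65.3 to 39.7 CPM (log2 fold change -0.72 ± 0.093, edgeR adjusted p = 7.7e-04) and *Rps27a* from 66.3 to 40.5 CPM (-0.71 ± 0.081, edgeR adjusted p = 5.1e-04). The gene that rose was *Rps29* (0.30 ± 0.11, edgeR adjusted p = 0.066), a call lost with the offset, without chow library 1, 3 or 4 or HFD library 2, 3 or 4, and without both chow libraries 3 and 4, when 44 of the family were lower. In KO liver 28 were lower and 1 higher. Translation initiation factors were lower in 16 of 53 and higher in 3, and with the offset for GC share lower in 16 and higher in 4. Splicing factors of the Srsf and Hnrnp families were lower in 13 of 30 and higher in 2, and with the offset lower in 9 and higher in 1. Zinc finger genes named Zfp were lower in 76 of 324 (23.5%) and higher in 16, and with the offset for GC share lower in 36. Without chow libraries 3 and 4, 10 of them were higher and 53 lower. The median GC share was 43.7% for Zfp genes and 43.3% for the splicing factors. In the decile of all genes between 43.06% and 45.03%, 22.2% were lower without the offset and 15.1% with it.

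Proteasome genes were split. Of 38 subunits 8 fell (15 with the offset for GC share, and 4 to 26 over all alternatives) and the 3 that rose were *Psmb8*, *Psmb9* and *Psmb10*, the catalytic subunits that replace the standard ones in the immunoproteasome. *Psmb10* went from a mean of 7.89 CPM on chow to 18.4 CPM on HFD (log2 fold change 1.2 ± 0.21, edgeR adjusted p = 0.0029) and *Psmb8* from 14.6 to 22.4 CPM (0.62 ± 0.12, edgeR adjusted p = 0.0043). Of 18 genes of the major histocompatibility complex 5 rose (4 rose and 1 fell without chow libraries 3 and 4), among them *H2-Q1* (1.87 ± 0.22, edgeR adjusted p = 5.5e-04) and *H2-T22* (0.74 ± 0.084, edgeR adjusted p = 5.0e-04), while the classical *H2-K1* (0.16 ± 0.12, edgeR adjusted p = 0.35) did not pass the test. Of 17 interferon-induced GTPase genes 6 rose, *Gbp10* from a mean of 2.34 to 13.3 CPM (2.42 ± 0.36, edgeR adjusted p = 0.0013). Genes of the H2 and Gbp families and of ribosomal proteins have near-identical copies or pseudogenes, so that each count is uncertain.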
